A study of Mus musculus with 12 samples.

Results

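The genes described here are 10 markers used for stem and progenitor cells of the stomach: Lgr5, Lgr4, Tnfrsf19, Smoc2, Ascl2, Aqp5, Lrig1, Cd44, Prom1 and Sox9. They were chosen by name as a list of known markers, with earlier results of these data known. Counts of members that passed are therefore set beside shares of all genes as description only. Each member matched 1 of 55421 gene rows by its symbol. All 10 had enough counts to be among the 16152 genes tested. RNA had been sequenced after poly(A) selection from wild-type mouse gastric organoids, which are epithelial cultures grown from isolated glands in a basement membrane gel.

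The 12 libraries fell into 4 groups of 3. Corpus and antral organoids with Wnt inhibition had received XAV939 for 24 h from day 4 after passage, at a dose labelled 1 mM, with exogenous Wnt and R-spondin withdrawn and Noggin added at 100 ng/mL. Corpus and antral organoids with vehicle had received DMSO in the normal medium, which holds 50% L-WRN conditioned medium, a source of Wnt, R-spondin and Noggin. XAV939 inhibits the tankyrases and so stabilises Axin, a scaffold of the complex that degrades beta-catenin; its effect and that of the withdrawal cannot be told apart. All 4 groups were wild type. Serum in the growth medium was 20% in corpus cultures and 10% in antral ones, so serum and region cannot be told apart either, and the sources used here state neither sex nor age of the mice. In each region 3 lines, numbered 8025, 8026 and 8028, were treated both ways. They are called independent lines and no donor animal is named. Unless a line block is named, p-values rest on the spread between lines within a group. They leave aside that each line was treated both ways.

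In the stomach, as in the intestine, Wnt ligands from the surrounding stroma maintain dividing cells in the glands, and organoids need a Wnt supply in the medium to keep such cells. R-spondins bind LGR receptors and remove the ubiquitin ligases Rnf43 and Znrf3, which otherwise clear Frizzled receptors from the cell surface. In mice, Lgr5 marks stem cells at the base of antral glands and, in the corpus, chief cells that can act as reserve stem cells. Several other members, among them Tnfrsf19, Ascl2, Smoc2, Cd44 and Sox9, are known Wnt targets in the mouse intestine.

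Library totals were 18858022 to 31656696 counts, and 3 counts, the limit that a reading of 0 allows, came to 0.0889 to 0.177 CPM (counts scaled to a common library total, with library sizes adjusted by the trimmed mean of M values, TMM). Epithelial identity was plain: summed CPM over 7 epithelial markers was 16845 to 18302 in inhibited corpus and 8930 to 9870 in vehicle corpus, and 16801 to 19015 in inhibited antrum and 9409 to 10850 in vehicle antrum. Over 11 stromal markers the sum was 0.430 to 1.89 CPM in any library. Both libraries of corpus line 8028 stood apart from the other corpus libraries: on the second principal component, which held 18.6% of the variance, they lay at -25.3 with inhibition and 1.78 with vehicle, against 28.2 to 40.9 for the other 4 corpus libraries and -34.2 to -7.90 for the 6 antral ones. With vehicle, ribosomal RNA-like genes took 17.2% of the counts of antral line 8025 and 6.87% of those of antral line 8028, against 0.839% to 3.45% in the other 10 libraries.

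Promoter sequences are shown for 3 members that span the range of responses: Tnfrsf19, which fell about as far in both regions, Ascl2, which fell less, and Lgr4, which rose. Each window runs from 250 bases before to 50 bases after a RefSeq start, 5′ to 3′ on the strand of the gene, on GRCm38.p6. Capitals mark a match to a word bound by TCF/LEF, the DNA-binding partners of beta-catenin. 4 words of 7 bases were searched on both strands, and none is the reverse complement of another. They were CTTTGAA and its form with a final T, CTTTGAT, together with CTTTGTA and its form with a final T, which is CTTTGTT.
Tnfrsf19, second start, chr14:61037938-61038237, minus strand: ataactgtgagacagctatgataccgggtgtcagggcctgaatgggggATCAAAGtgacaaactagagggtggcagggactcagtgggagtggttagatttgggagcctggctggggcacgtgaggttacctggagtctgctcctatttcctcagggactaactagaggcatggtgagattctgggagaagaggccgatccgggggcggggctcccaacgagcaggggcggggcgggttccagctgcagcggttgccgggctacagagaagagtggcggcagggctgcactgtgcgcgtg
Ascl2, chr7:142969215-142969514, minus strand: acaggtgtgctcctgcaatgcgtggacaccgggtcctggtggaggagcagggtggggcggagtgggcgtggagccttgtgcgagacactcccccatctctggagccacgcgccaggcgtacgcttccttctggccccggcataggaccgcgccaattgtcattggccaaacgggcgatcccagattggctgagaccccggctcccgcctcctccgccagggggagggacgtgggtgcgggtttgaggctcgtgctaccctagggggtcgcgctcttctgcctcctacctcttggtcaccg
Lgr4, chr2:109917397-109917696, plus strand: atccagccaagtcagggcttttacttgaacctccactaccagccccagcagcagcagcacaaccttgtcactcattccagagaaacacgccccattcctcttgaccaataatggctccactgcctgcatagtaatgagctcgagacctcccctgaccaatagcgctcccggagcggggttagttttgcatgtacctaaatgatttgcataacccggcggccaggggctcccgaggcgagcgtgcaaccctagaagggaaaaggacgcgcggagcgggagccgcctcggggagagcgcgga

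RefSeq windows were at hand for 7 members in 9 windows, all but Lgr5, Smoc2 and Sox9. Of the 9, the second Tnfrsf19 start held the only match, ATCAAAG beginning at position -202 from the start, which is CTTTGAT on the other strand. Of all 32851 windows in the table, 5544 (16.9%) held at least 1 of the words. A match of letters is a description of the window; no binding was measured here.

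Wnt inhibition lowered 9 of the 10 markers in corpus organoids and 8 of 10 in antral organoids, and raised Lgr4 in both. Lgr5, Tnfrsf19 and Smoc2 fell by more than 8-fold in either region, while Cd44, Lrig1 and Prom1 fell least in corpus and Cd44 and Lrig1 did in antrum among the members that passed. In corpus all 10 members passed edgeR's quasi-likelihood test at a Benjamini-Hochberg adjusted p below 0.05, where 30.9% of all genes tested did so in either direction, 15.5% higher and 15.4% lower. In antrum 9 members passed, where 29.7% of all genes did, 16.3% higher and 13.4% lower. A fall of at least 8-fold was met by 3 members in each region, against 0.625% of genes in corpus and 0.501% in antrum. The median log2 change of the 10 members was -2.30 in corpus and -2.00 in antrum, beside -0.04 over all genes tested in both. The libraries of the 2 groups did not overlap for 10 members in corpus, where 40.8% of genes did not overlap, and for 9 in antrum, where 48.7% did not.

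**Figure D1:**
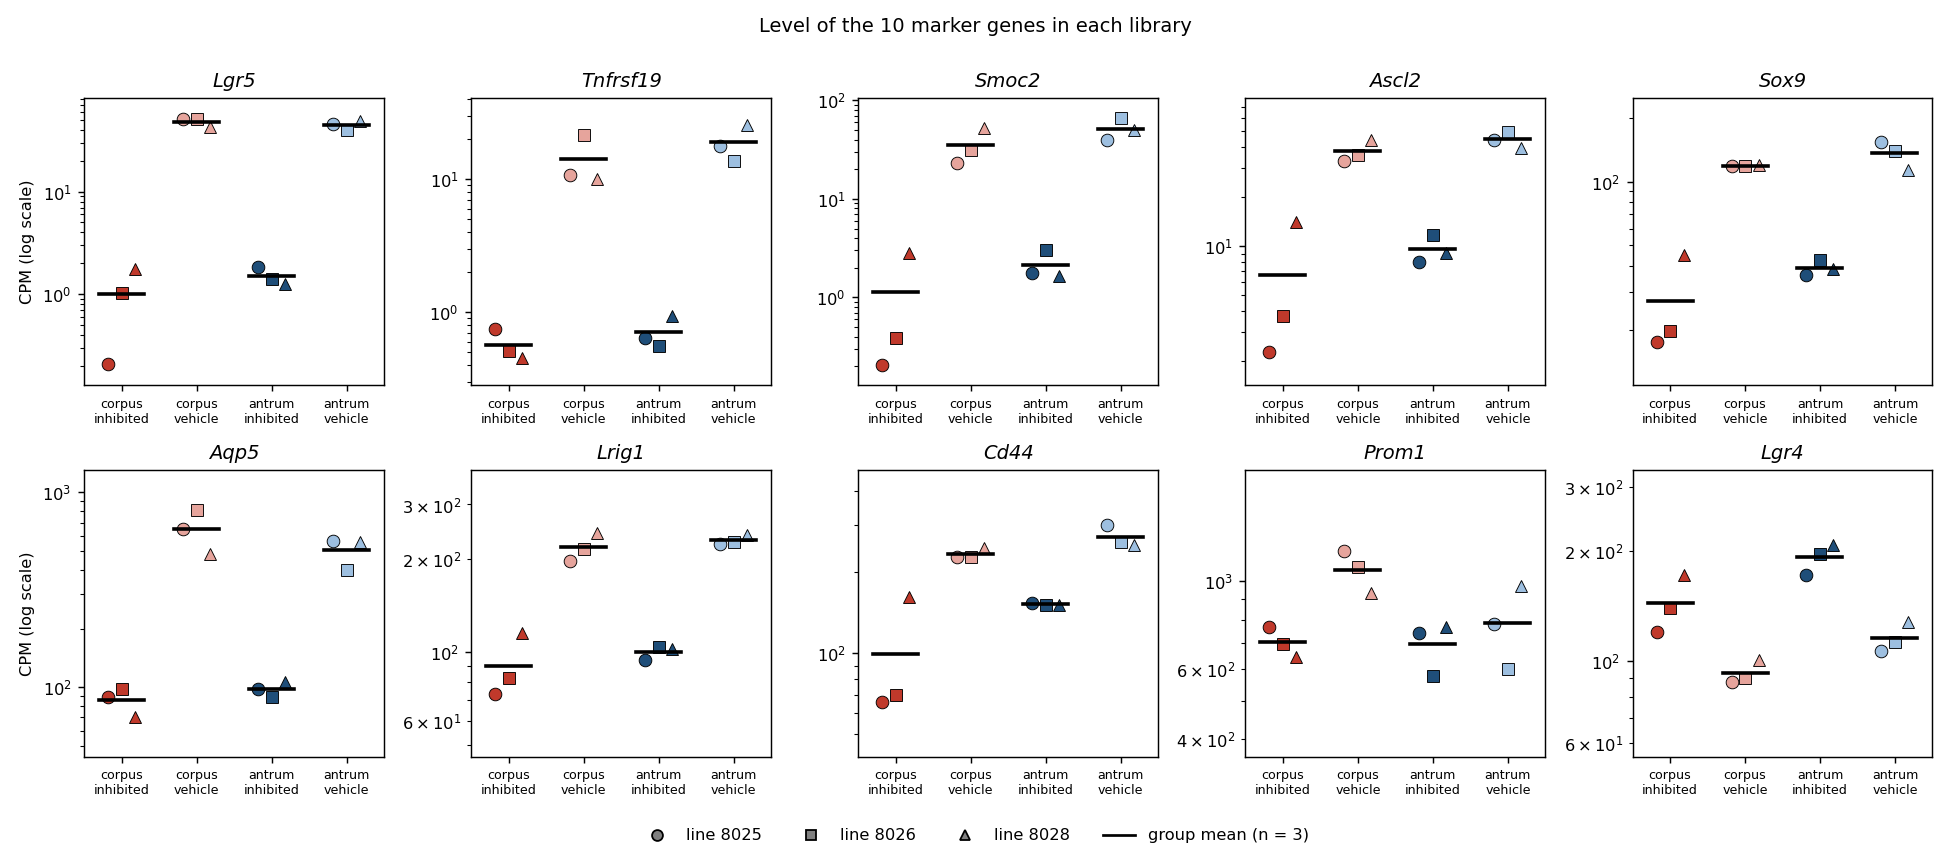
CPM on log axes (vertical) of each of the 10 marker genes in the 12 libraries; marker shapes give the organoid line and black bars the mean of 3 libraries. Inhibited libraries lie below vehicle libraries for every gene but Lgr4, where they lie above, and Prom1 in antrum, where the groups overlap.

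The deepest falls were in 3 members that, per kb of exon, were also the least abundant with vehicle. Lgr5 (ENSMUSG00000020140, chromosome 10, 115450311 to 115587780, minus strand, GRCm38 here and below), a receptor for R-spondins, stood at 0.206, 1.03 and 1.77 CPM in inhibited corpus lines 8025, 8026 and 8028, against 51.1, 51.1 and 42.4 CPM with vehicle in the same lines. In antrum, in the same order of lines, Lgr5 was at 1.83, 1.42 and 1.25 CPM with inhibition and 46.3, 40.0 and 48.8 CPM with vehicle. Every inhibited library was far below every vehicle library. The counts behind these values were 76 in inhibited against 4601 in vehicle corpus and 122 against 3169 in antrum, which gave vehicle over inhibited ratios of 47.2 (95% exact interval 37.6 to 60.0) and 29.4 (24.6 to 35.6), intervals that cover counting error only. The log2 change was -5.56 (SE 0.37, adjusted p = 3.39e-06) in corpus and -4.90 (SE 0.35, adjusted p = 3.63e-06) in antrum. Without the inhibited library of corpus line 8028 the corpus value was -6.26.

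Smoc2 (ENSMUSG00000023886, chromosome 17, 14279506 to 14404790, plus strand) encodes a secreted calcium-binding matrix protein. It was at 0.206, 0.385 and 2.82 CPM in inhibited corpus, against 23.1, 31.0 and 52.4 CPM in vehicle corpus. The inhibited library of line 8028 was the high one, and its vehicle library was the highest too. In antrum Smoc2 was at 1.76, 3.06 and 1.64 CPM with inhibition and 39.4, 65.8 and 50.1 CPM with vehicle. Its log2 change was -4.91 (SE 0.62, adjusted p = 0.000167) in corpus and -4.59 (SE 0.58, adjusted p = 0.000167) in antrum, and the corpus value was -6.86 without the inhibited library of line 8028.

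Tnfrsf19 (ENSMUSG00000060548, chromosome 14, 60963875 to 61046490, minus strand), also known as Troy, is a receptor of the tumour necrosis factor receptor superfamily. It was at 0.742, 0.514 and 0.451 CPM in inhibited corpus, against 10.7, 21.6 and 10.1 CPM in vehicle corpus, where line 8026 stood above the others. In antrum it was at 0.634, 0.560 and 0.938 CPM with inhibition and 17.7, 13.7 and 25.5 CPM with vehicle. The log2 change was -4.63 (SE 0.40, adjusted p = 1.47e-05) in corpus and -4.73 (SE 0.39, adjusted p = 8.89e-06) in antrum. Its 3 inhibited corpus libraries held 42 counts in all, so their order is not resolved at this depth.

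The transcription factors Ascl2 and Sox9 fell to intermediate levels. Ascl2 (ENSMUSG00000009248, chromosome 7, 142966829 to 142969264, minus strand), a basic helix-loop-helix factor that maintains stem cells in the mouse intestine, was at 2.27, 3.77 and 14.03 CPM in inhibited corpus, against 32.8, 36.1 and 44.4 CPM in vehicle corpus. Antral Ascl2 was at 7.96, 11.8 and 9.11 CPM with inhibition and 44.4, 49.8 and 39.9 CPM with vehicle. Inhibited corpus line 8028 was above all 3 inhibited antral libraries and the other 2 inhibited corpus libraries were below them. Fitted over all libraries, its log2 change was -2.48 (SE 0.48, adjusted p = 0.00247) in corpus and -2.22 (SE 0.47, adjusted p = 0.00432) in antrum. The corpus value was -3.62 without the inhibited library of line 8028, and in antrum Ascl2 no longer passed once antral line 8025 was left out (adjusted p = 0.0520).

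Sox9 (ENSMUSG00000000567, chromosome 11, 112782224 to 112787760, plus strand) is a high-mobility-group factor of progenitor cells. It was at 17.6, 19.7 and 44.8 CPM in inhibited corpus, against 119, 118 and 119.6 CPM in vehicle corpus. The inhibited library of line 8028 stood above the other 2 while the vehicle libraries were nearly level. In antrum Sox9 was at 36.4, 42.7 and 38.8 CPM with inhibition and 154, 139 and 114 CPM with vehicle. The log2 change was -2.11 (SE 0.28, adjusted p = 0.000242) in corpus and -1.79 (SE 0.28, adjusted p = 0.000671) in antrum.

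Aqp5 (ENSMUSG00000044217, chromosome 15, 99590782 to 99594829, plus strand) encodes a water channel that marks stem cells of the mouse antrum as well as mucous gland cells. It was at 89.3, 98.2 and 70.3 CPM in inhibited corpus, against 651, 815 and 482 CPM in vehicle corpus. In antrum it was at 97.5, 88.8 and 106 CPM with inhibition and 560, 400 and 554 CPM with vehicle. The fall was similar in size in every line, between 6.86-fold and 8.30-fold in corpus and between 4.50-fold and 5.74-fold in antrum. edgeR put the log2 change at -2.92 (SE 0.21, adjusted p = 3.98e-06) in corpus and -2.37 (SE 0.20, adjusted p = 1.07e-05) in antrum.

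Smaller falls were seen in the membrane proteins Lrig1, Cd44 and Prom1. Lrig1 (ENSMUSG00000030029, chromosome 6, 94604529 to 94700158, minus strand), a brake on epidermal growth factor receptor signalling, was at 73.5, 82.3 and 115 CPM in inhibited corpus, against 197, 215 and 243 CPM in vehicle corpus. In antrum it was at 94.7, 104 and 103 CPM with inhibition and 224, 228 and 238 CPM with vehicle. The log2 change was -1.27 (SE 0.14, adjusted p = 6.31e-05) in corpus and -1.19 (SE 0.14, adjusted p = 8.84e-05) in antrum. An exon of Slc25a26 overlaps Lrig1 on the other strand, and since the strand setting of the counting is not given in the sources used here, reads of the overlap cannot be assigned.

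Cd44 (ENSMUSG00000005087, chromosome 2, 102811141 to 102901665, minus strand), a receptor for hyaluronan, was at 66.0, 70.2 and 163 CPM in inhibited corpus, against 228, 229 and 247 CPM in vehicle corpus. In antrum it was at 153, 151 and 151 CPM with inhibition and 301, 260 and 253 CPM with vehicle. Line 8028 set the spread in inhibited corpus, where the coefficient of variation was 54.8%, against 0.750% in inhibited antrum. Its fitted log2 change was -1.24 (SE 0.27, adjusted p = 0.00504) in corpus and -0.84 (SE 0.27, adjusted p = 0.0358) in antrum. The antral call was lost when any 1 of the 6 antral libraries was left out (adjusted p = 0.0596 to 0.103), and the corpus call without both libraries of corpus line 8026 (adjusted p = 0.0523).

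Prom1 (ENSMUSG00000029086, chromosome 5, 43993620 to 44102032, minus strand) encodes prominin, a protein of membrane protrusions that is used as a stem cell marker in several tissues. It was at 767, 695 and 643 CPM in inhibited corpus, against 1192, 1085 and 934 CPM in vehicle corpus. In antrum it was at 742, 578 and 767 CPM with inhibition and 782, 602 and 972 CPM with vehicle, and the groups overlapped. The log2 change was -0.61 (SE 0.17, adjusted p = 0.0168) in corpus and did not pass in antrum at -0.17 (95% interval -0.54 to 0.19, adjusted p = 0.457). The corpus call was lost without the inhibited library of line 8026 (adjusted p = 0.0583) or the vehicle library of line 8025 (adjusted p = 0.0768). An exon of Gm16401 overlaps Prom1 on the other strand.

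Lgr4 (ENSMUSG00000050199, chromosome 2, 109917647 to 110014257, plus strand), the broadly expressed R-spondin receptor, was the one member that rose. It was at 121, 140.0 and 172 CPM in inhibited corpus, against 87.8, 90.1 and 101 CPM in vehicle corpus. In antrum it was at 172, 196 and 208 CPM with inhibition and 107, 113 and 128 CPM with vehicle. On the log2 scale the change was 0.63 (SE 0.12, adjusted p = 0.00254) in corpus and 0.73 (SE 0.12, adjusted p = 0.00113) in antrum, and the rise was seen in 6 of 6 lines. With libraries scaled by total counts alone, the median of all genes lay at -0.19 in corpus and -0.12 in antrum, and Lgr4 changed by 0.48 and 0.65 with adjusted p = 0.0248 and 0.00567.

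These libraries are bulk samples, so fewer cells of a type and less RNA per cell cannot be told apart. Summed CPM over 26 cell cycle genes was 1652 to 3668 in inhibited corpus and 3262 to 3987 in vehicle corpus, and 2663 to 3348 in inhibited antrum and 3614 to 4479 in vehicle antrum. Of the 26, 2 fell in corpus (Cenpf at -0.82 and Top2a at -0.84) and 1 in antrum (Cenpf at -0.66), and none rose. All 26 had log2 changes below 0 in both regions, and the list's median was -0.57 in corpus and -0.49 in antrum, beside -0.04 over all genes tested. The part of the cell cycle genes in the falls of the markers was not tested.

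**Figure D2:**
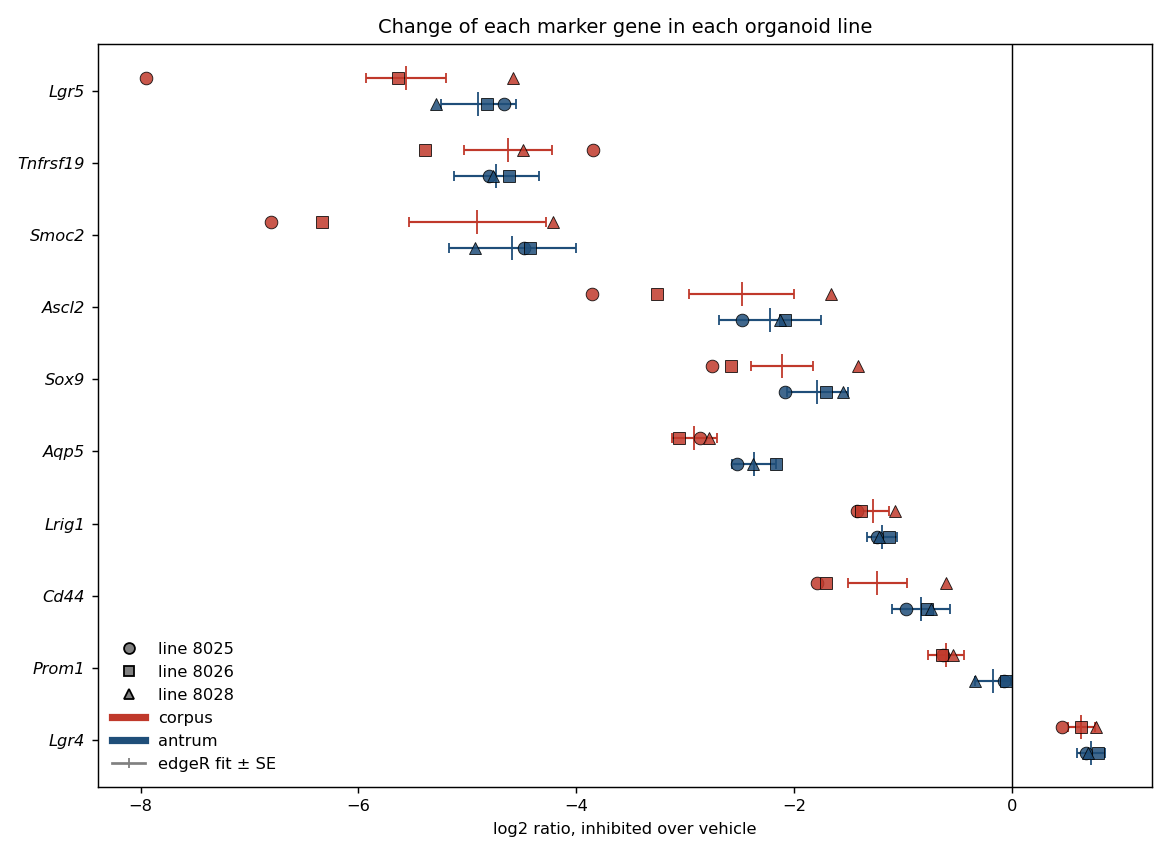
Log2 ratio of inhibited over vehicle CPM (horizontal) of each marker gene in each organoid line, corpus in red above antrum in blue; ticks with bars give the edgeR log2 change and its SE. Corpus points are spread more widely than antral ones for Lgr5, Smoc2, Ascl2, Sox9 and Cd44, with line 8028 nearest to 0 in each. They are also wider for Tnfrsf19, where line 8025 is nearest to 0, and less markedly for Lrig1 and Lgr4. Inhibited corpus libraries held 12 to 18 counts of Tnfrsf19, so its order of lines is not resolved. In inhibited corpus line 8025, Lgr5 and Smoc2 rest on 5 counts each.

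The 3 corpus lines differed in the size of the falls, a comparison of single libraries with no test. Of the 9 members that fell in corpus, 8 fell least in line 8028. Tnfrsf19 had its smallest fall in line 8025, on 18, 12 and 12 counts in inhibited lines 8025, 8026 and 8028, so its order of lines is not resolved. Among the 2487 genes that fell in corpus, 1504 (60.5%) fell least in line 8028. Cd44 with inhibition was at 28.9%, 30.7% and 65.7% of its vehicle level in corpus lines 8025, 8026 and 8028, and Sox9 at 14.8%, 16.7% and 37.5%. For Ascl2 the values were 6.90%, 10.4% and 31.6%. Smoc2 kept 0.894%, 1.24% and 5.39%, and Lgr5 0.403%, 2.01% and 4.17%. Prom1 differed little between lines, at 64.1% to 68.9% of the vehicle level, and Aqp5 fell by 6.86-fold to 8.30-fold. In antrum the log2 ratios of a member spanned 0.11 to 0.63 across the 3 lines, while in corpus they spanned 0.11 for Prom1 to 3.37 for Lgr5. Low counts limit the corpus values of Lgr5 and Smoc2. The inhibited library of line 8025 held 5 counts of each, and that of line 8026 held 9 of Smoc2, so these ratios and spans are imprecise.

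Levels of different genes were compared as CPM per kb of merged exons. In vehicle corpus the order was Aqp5 at 249.9, Prom1 at 149, Lrig1 at 39.1, Cd44 at 34.7, Sox9 at 28.7, Ascl2 at 23.3, Lgr4 at 15.8, Smoc2 at 5.10, Lgr5 at 4.70 and Tnfrsf19 at 2.98. Neighbours whose libraries overlapped were Lrig1 and Cd44, and Smoc2, Lgr5 and Tnfrsf19. Vehicle antrum had the same order of means, with overlaps of Lrig1 with Cd44, Sox9 with Ascl2, and Lgr5 with Tnfrsf19. The best-known marker, Lgr5, was therefore among the 3 lowest of the 10 in Wnt-rich medium.

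After inhibition Prom1 led in both regions, at 97.8 CPM per kb in corpus and 97.0 CPM per kb in antrum. Aqp5 was at 33.1 in corpus and 37.5 in antrum, and Lgr4 was next at 24.5 in corpus and 32.7 in antrum, with libraries that overlapped those of Aqp5 in both regions. Smoc2, Tnfrsf19 and Lgr5 closed the order at 0.164, 0.120 and 0.0975 CPM per kb in inhibited corpus and 0.310, 0.150 and 0.146 CPM per kb in inhibited antrum. Merged exons of Lgr5 came to 10264 bases and its principal transcript to 4714; with principal transcript lengths, an alternative chosen after seeing the data, Lgr5 and Tnfrsf19 changed places in the inhibited groups and Cd44 and Lrig1 in vehicle antrum, and the other ranks were as given.

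**Figure D3:**
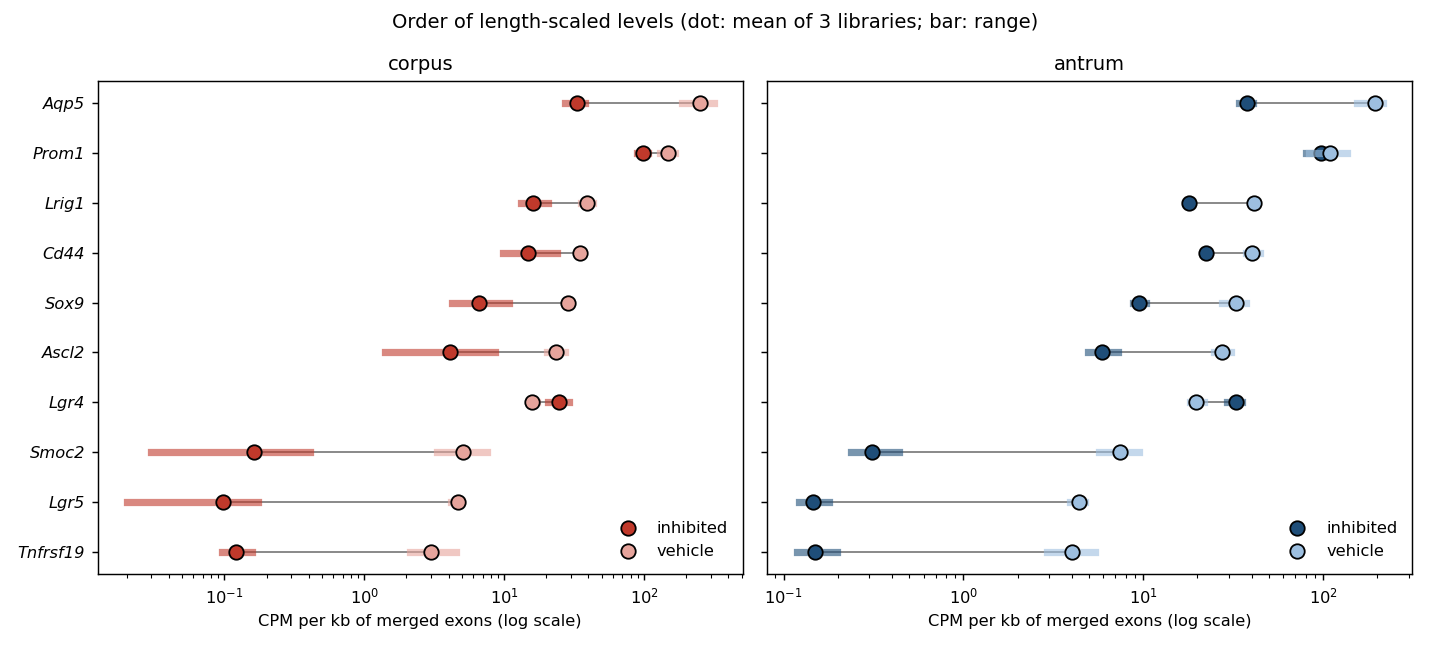
CPM per kb of merged exons (horizontal, log axis) of the 10 marker genes in corpus and antrum; dark dots are inhibited and light dots vehicle means of 3 libraries, with the range as a thick bar. Only Lgr4 has its inhibited mean, 24.5 in corpus and 32.7 in antrum, above its vehicle mean of 15.8 and 19.7.

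The opposite changes of Lgr4 and Lgr5 altered the make-up of the LGR receptor transcripts. Lgr5 made up 0.0977% to 0.586% of the summed CPM per kb of Lgr4, Lgr5 and Lgr6 in inhibited corpus and 19.4% to 25.0% in vehicle corpus. In antrum its share was 0.343% to 0.607% with inhibition and 16.8% to 19.8% with vehicle. The sum of the 3 receptors was 24.6 ± 4.45 CPM per kb in inhibited and 20.5 ± 0.674 in vehicle corpus, and 32.8 ± 3.13 in inhibited and 24.2 ± 2.09 in vehicle antrum (SD, n = 3 each). With principal transcript lengths Lgr5 took 0.183% to 1.09% in inhibited and 31.1% to 38.4% in vehicle corpus, 0.640% to 1.13% in inhibited and 27.5% to 31.7% in vehicle antrum, and the corpus sums were 28.7 ± 5.25 and 28.6 ± 0.334. Lgr6 had 59 counts over all 12 libraries.

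**Figure D4:**
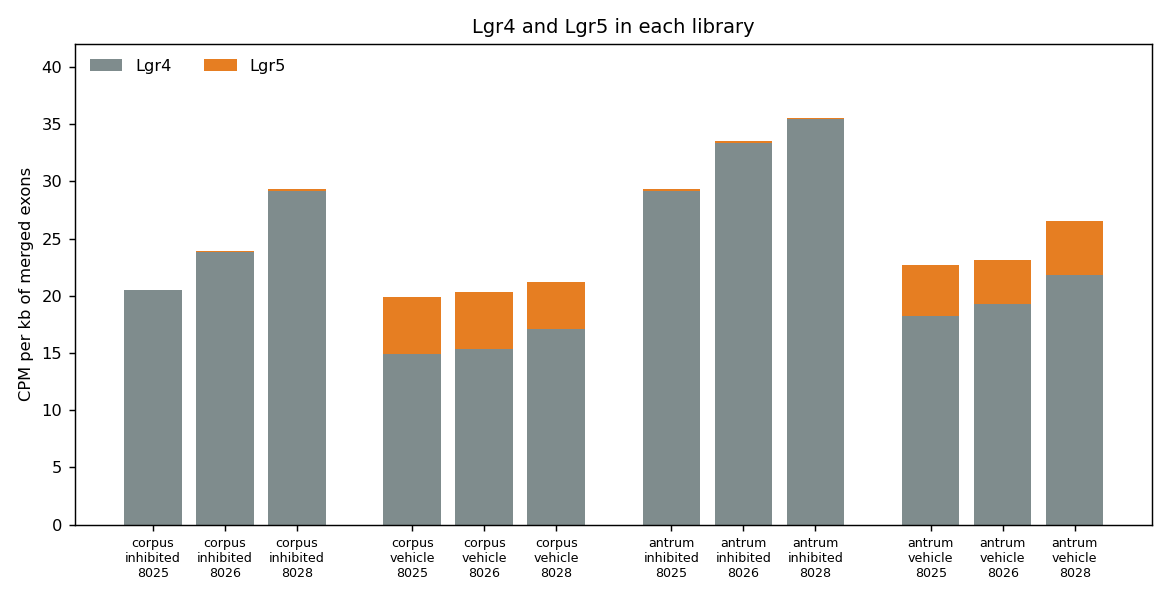
CPM per kb of merged exons (vertical) of Lgr4 (grey) and Lgr5 (orange, stacked on it) in each library, by group and line. Lgr5 is a visible part of the bar in the 6 vehicle libraries, 16.8% to 25.0% of the family sum, and at most 0.607% in the 6 inhibited ones.

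Other genes of the R-spondin module were read from the same fit. The ubiquitin ligases Rnf43 and Znrf3, themselves Wnt-induced inhibitors of Frizzled, fell in both regions: Rnf43 by log2 changes of -1.50 in corpus (adjusted p = 5.07e-05) and -1.25 in antrum (adjusted p = 0.000159), and Znrf3 by -1.29 (adjusted p = 0.000112) and -1.19 (adjusted p = 0.000195). The ligands Rspo1, Rspo2, Rspo3 and Rspo4 had 0 to 7 counts each over the 12 libraries. Of 14 tested Wnt feedback and target genes outside the members, 12 fell in corpus and 11 in antrum and none rose; the list's median log2 change was -1.85 in corpus and -1.28 in antrum. Nkd1, an inhibitor of Dishevelled, changed most, by -3.57 in corpus and -3.42 in antrum, followed by the transcription factor Sp5 at -2.92 and -2.62 and the scaffold Axin2 at -2.88 and -2.61. Znrf3 and Rnf43 are in both lists.

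A further 21 tested genes used as stem or progenitor markers in the gut behaved less uniformly: 9 fell and none rose in either region, with a median log2 change of -0.41 in corpus and -0.30 in antrum. Igfbp4, a secreted binding protein of insulin-like growth factors, changed by -3.76 in corpus and -3.20 in antrum. Dclk1, a kinase that marks tuft cells and some long-lived cells, changed by -3.62 and -3.55. Mex3a, an RNA-binding protein of slowly dividing intestinal cells, changed by -1.32 in corpus and -1.51 in antrum, and Hopx, a homeodomain protein, by -1.01 and -1.58. Olfm4, a classical crypt marker, did not pass at 1.36 in corpus (adjusted p = 0.273) and 1.69 in antrum (adjusted p = 0.141); it and Lgr5 were set side by side after their values were seen.

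The paralogs of the members showed no common direction: among those described here, 3 rose and 1 fell in each region. Prom2, a paralog of Prom1, rose by log2 changes of 1.72 in corpus and 1.75 in antrum, and Tnfrsf21, of the same receptor superfamily as Tnfrsf19, by 1.76 and 1.75. Among aquaporins, Aqp3 rose by 3.64 in corpus and 4.71 in antrum, Aqp1 changed by -3.58 and -3.45, and Aqp4 did not pass at -0.37 and -0.38. Lrig2, Lrig3 and Smoc1 did not pass in either region.

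Likeness to Lgr5 was measured as the root-mean-square difference of log2 CPM, each gene centred on its own mean, over the 12 libraries, among 11030 genes averaging at least 5 CPM. Smoc2 was nearest at 0.69, followed by A4gnt, a glycosyltransferase of gland mucins, at 0.75, Anpep, an aminopeptidase, at 0.88, Ppp2r2b, a regulatory subunit of protein phosphatase 2A, at 0.89 and Tnfrsf19 at 0.94. A4gnt averaged 1.69 CPM in inhibited and 32.3 CPM in vehicle corpus, and 2.13 CPM in inhibited and 24.3 CPM in vehicle antrum. Among the members, Lrig1 and Cd44 were the closest pair at 0.28, and Ascl2 and Sox9 followed at 0.41. Genes outside the list were closer to each of these: among all 11030, Cd44 ranked 187 in likeness to Lrig1 and Lrig1 ranked 124 to Cd44, while Sox9 ranked 8 to Ascl2 and Ascl2 ranked 36 to Sox9. The treatment change enters this measure, and its part was not separated from differences between lines or regions.

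Antrum and corpus were compared within each medium. With vehicle, 0 of 10 members differed between antrum and corpus by edgeR, where 0.198% of all genes did; DESeq2 and limma-voom also called 0. By edgeR, Lgr4 at a log2 difference of 0.32 (adjusted p = 0.255) and Prom1 at -0.45 (adjusted p = 0.248), antrum relative to corpus, had an unadjusted p below 0.05. The share of all genes below that unadjusted limit was not counted, so no excess among the members is read from it. Libraries did not overlap for 2 members, Lgr4 and Cd44, against 22.5% of all genes. The 95% interval for Lgr5 ran from -0.69 to 0.49, so a difference of over 2-fold between the regions lay outside it, while for Smoc2 it ran from -0.48 to 1.58.

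With inhibition, 0 of 10 members differed between antrum and corpus by edgeR, DESeq2 or limma-voom, where edgeR called 0.0619% of all genes. By edgeR, Lgr4 at 0.42 (adjusted p = 0.358) and Cd44 at 0.61 (adjusted p = 0.529) had an unadjusted p below 0.05. Here too the share of all genes below that limit was not counted. Libraries did not overlap for 1 member, Lgr4, against 11.8% of all genes. Of the 10 log2 differences, 9 were above 0, with a median of 0.46 beside 0.01 over all genes. Without both libraries of corpus line 8028, a setting chosen with the position of that line known, 6 members were higher in inhibited antrum than in inhibited corpus, where 9.13% of genes were: Smoc2 at 2.85 (adjusted p = 0.0197), Ascl2 at 1.67 (adjusted p = 0.00441), Cd44 at 1.16 (adjusted p = 8.85e-05), Sox9 at 1.07 (adjusted p = 0.00205), Lgr4 at 0.56 (adjusted p = 0.0104) and Lrig1 at 0.36 (adjusted p = 0.0148). When its inhibited library alone was left out, 5 were, all of these but Smoc2, where 7.42% of genes were. With vehicle and without both libraries of line 8028, Lgr4 was higher in antrum at 0.39 (adjusted p = 0.0475), where 2.27% of genes were. Of the corpus lines, 8028 lay nearest the antral libraries on the second principal component. Leaving it out can by itself widen regional differences, so these fits are no independent test of the regions.

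The response itself was compared as the antral minus the corpus log2 change. By edgeR 0 of 10 members differed, where 0.00619% of all genes did, and 0 had an unadjusted p below 0.05; DESeq2 and limma-voom also called 0. The differences ranged from -0.11 for Tnfrsf19 to 0.66 for Lgr5, with a median of 0.32 beside 0.02 over all genes tested. Of the members 9 were above 0, which for those that fell is a smaller fall in antrum. These signs were not stable: with 1 library at a time left out, Lgr4, Smoc2, Ascl2 and Lrig1 reached below 0 and Tnfrsf19 above 0. The Lgr5 difference ran from 0.20 to 1.39 when 1 library at a time was left out, the highest without the inhibited library of corpus line 8028. Intervals were wide for the low-count members, -0.46 to 1.79 for Lgr5 and -1.53 to 2.17 for Smoc2, and narrower for Lgr4, -0.29 to 0.47, and Lrig1, -0.35 to 0.51. Without both libraries of corpus line 8028, Cd44 differed at 0.91 (adjusted p = 0.0146), where 0.0122% of genes were higher, and when its inhibited library alone was left out, at 0.94 (adjusted p = 0.00982), where 0.0242% were. With the line as a block as well, a fit chosen after seeing the data, 6 members differed where 0.752% of genes were higher: Smoc2 at 1.91 (adjusted p = 0.0204), Ascl2 at 1.298 (adjusted p = 0.0141), Cd44 at 0.91 (adjusted p = 0.000806), Sox9 at 0.88 (adjusted p = 0.0446), Aqp5 at 0.60 (adjusted p = 0.0316) and Prom1 at 0.48 (adjusted p = 0.0490). As above, leaving out the corpus line nearest the antral libraries can by itself widen such differences. Whether line 8028 differs in origin, handling or biology was not tested.

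**Figure D5:**
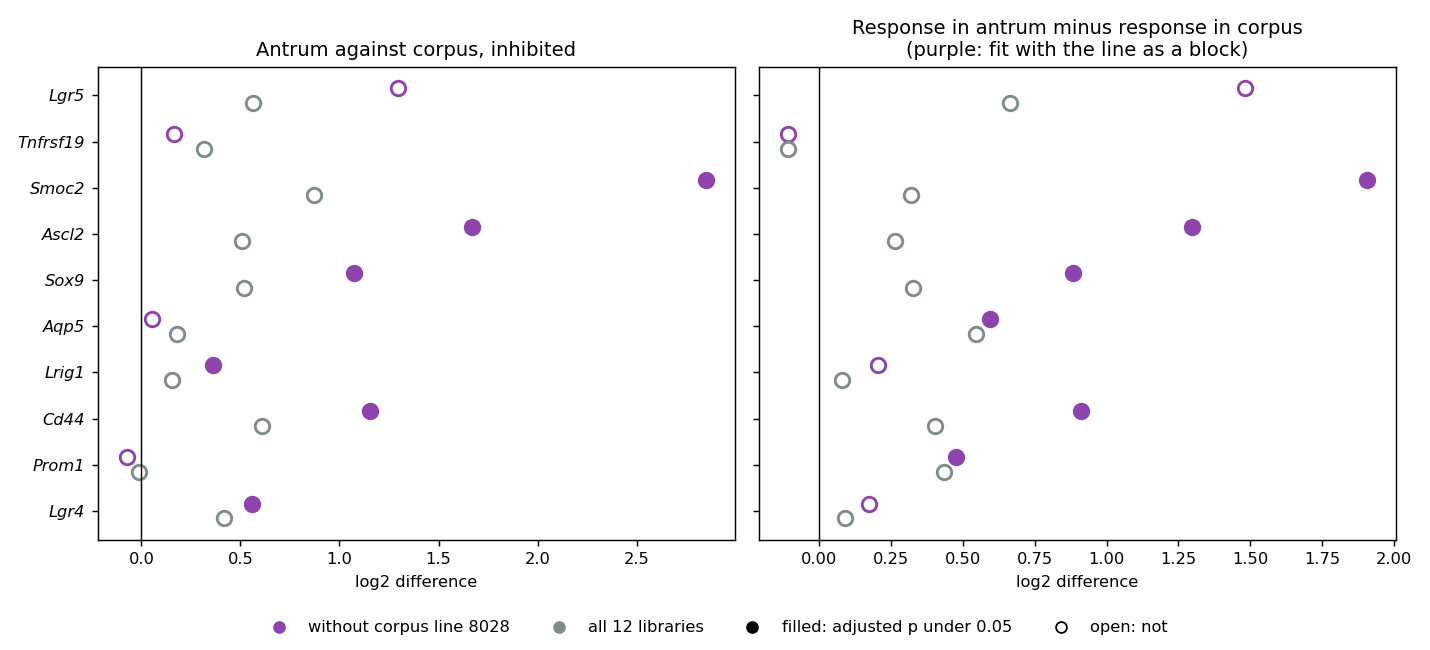
Log2 difference (horizontal) of each marker gene between inhibited antrum and inhibited corpus (left) and between the responses of antrum and corpus (right), with corpus line 8028 left out (purple) and with all 12 libraries (grey); filled circles have an adjusted p below 0.05. With all 12 libraries no circle is filled; without line 8028, 6 are filled in each panel, and the right panel's purple fit also has the line as a block. Line 8028 was the corpus line nearest the antral libraries, and leaving it out can by itself widen the differences.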

How the data were processed

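The values analysed are the authors' expected counts, 1 per gene and library; per the submitters' processing notes the tools were cutadapt 2.3, FastQC 0.11.8, STAR 2.7.8a and RSEM 1.3.3 on GRCm38, with no roles or settings. Poly(A) selection is per the labels' protocols; for annotation release and strandedness, none is given in the sources used here. All values were whole, so rounding changed nothing. Of 55426 rows, 5 transgene rows (2 counts) were left out. Gene positions and exon lengths are from GENCODE mouse release 21, where 55240 of 55421 identifiers matched; promoter windows are from RefSeq.

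edgeR 4.0.16 (R 4.3.3) was fitted to all 12 libraries: TMM, filterByExpr (16152 genes), robust quasi-likelihood, two-sided, Benjamini-Hochberg adjustment over all genes tested at 0.05, no minimum fold. Intervals are 95%. CPM use TMM-scaled totals; likeness used a prior count of 2.

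Members and gene lists were chosen with earlier results of these data known. Named were the 10 members, for each list up to 3 passing genes, those of largest change among those averaging at least 1 CPM, all R-spondin module genes and paralogs (1 paralog is not reported here), and the 5 genes most like Lgr5.

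Replicate libraries all differed by more than counting noise (chi-square over its degrees of freedom 10.8 to 306). Line numbers pair the treatments of a region, since the labels' protocols treat the same lines both ways; deviations of these pairs correlated at 0.157 to 0.544, and same-numbered pairs across regions at -0.104 to 0.277. Tried as well were scaling by RLE, by upper quartile or by totals, 2 other filters, DESeq2 1.42.0, limma-voom (limma 3.58.1), the line as a block, only the libraries compared, and leaving out libraries or lines. In simulated counts of the corpus comparison (15874 genes), recovery was 40% at 1.5-fold, 74% at 2-fold, 94% at 4-fold and 98% at 8-fold. Only 50 genes at each fold, all averaging at least 1 CPM, were changed there, far fewer than passed in the real comparison. These rates are therefore not the power of the fit reported. Recovery was not measured for the regional comparisons.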

Additional observations from a re-analysis of the deposited data

How the results depend on the processing

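Over all settings tried, 8 to 10 members passed in corpus and 7 to 9 in antrum, and no member that passed with all libraries changed direction. Of 190 member values in corpus 185 kept direction and side of the threshold and 5 lost the call (Prom1 4 times, Cd44 once); of 190 in antrum, 176 did, 12 lost the call (Cd44 11 times, Ascl2 once) and 2 turned sign. Cd44 in antrum also lost it without the low-count filter (adjusted p = 0.128) and with the vehicle libraries of antral lines 8025 and 8028 left out (adjusted p = 0.214), where the single vehicle library left was assumed to vary like the other groups. The replicate block of line within region changed no member's call (10 in corpus, 9 in antrum, 0 for the difference in response) and raised the calls over all genes to 7022 from 4985 in corpus, of which the lower ones to 3821 from 2487, and to 6594 from 4794 in antrum, of which the lower ones to 3261 from 2158.

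Regional counts depended on corpus line 8028. Members that differed between inhibited antrum and corpus numbered 0 to 6 when libraries or lines were left out (5 without its inhibited library, 6 without both) and 1 with the block on line number across regions (Lgr4, 0.42, adjusted p = 0.0487), against 0 with all libraries and no block. With vehicle they numbered 0 to 1, and for the difference in response 0 to 1, or 6 with the replicate block and without that line. Over all genes, other settings gave 17 to 497 calls with vehicle (32 by the fit reported), 0 to 149 with inhibition (10) and 1 to 7 for the difference in response (1), the highest by DESeq2 in the first 2. Leaving out libraries or lines gave 1 to 1080, 0 to 2386 and 0 to 5, and 2550 to 6888 in corpus and 2710 to 4207 in antrum. With the replicate block and without corpus line 8028, calls numbered 176 for the difference in response and 7351 in corpus. The cause of these moves was not tested.

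Values that turned sign were all of members that had not passed. With the vehicle libraries of those 2 antral lines left out they were Prom1 in antrum (0.212), Tnfrsf19 between regions with vehicle (-0.0402) and, for the difference in response, Tnfrsf19 (0.359) and Smoc2 (-0.0175); with total counts it was Lrig1 between regions with vehicle (-0.0109). Leaving out 1 library at a time gave -0.309 to 0.0092 for Prom1 in antrum, -0.0884 to 0.105 for Prom1 between inhibited regions, and for the difference in response -0.0174 to 0.226 for Lgr4, -0.547 to 0.168 for Tnfrsf19, -0.162 to 2.29 for Smoc2, -0.139 to 1.42 for Ascl2 and -0.0449 to 0.282 for Lrig1. Without both libraries of corpus line 8025 Prom1 between inhibited regions was at 0.0562, and the differences in response of Tnfrsf19 and Ascl2 at 0.294 and -0.0539; without both of antral line 8026 Prom1 between inhibited regions was at 0.105. Low counts limit Lgr5, Tnfrsf19 and Smoc2 after inhibition, where a library held 5 to 82 counts of each.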

Other observations

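The lists of differentiated cells moved in the same libraries as the stem cell markers; the part of each in the falls of the markers was not tested. Of 11 tested genes on the pit cell list 10 rose in either region and 1, Gkn3, which is on the neck cell list too, fell. The rises were led by the surface mucin Muc5ac at log2 changes of 5.66 in corpus and 6.67 in antrum, Mucl3 at 4.55 and 6.07 and the gastrokine Gkn2 at 3.78 and 4.99. Of 8 neck cell genes, corpus had 2 that rose and 5 that fell, antrum 2 and 4. The neck cell list also holds Aqp5, Cd44 and Gkn3, which changed by -2.31 in corpus and -1.34 in antrum. The gland mucin Muc6 fell, at -4.04 in corpus and -3.38 in antrum. Those that rose were Tff2, at 2.26 in corpus and 2.89 in antrum, and Lgals2, at 3.12 and 3.39. Of 4 tested chief cell genes 2 fell in both, Cblif (intrinsic factor) at -4.96 in corpus and -3.39 in antrum and Pgc (pepsinogen) at -3.21 and -1.75. Of 4 parietal genes corpus had 2 that rose and 2 that fell, antrum 2 and 1, with Atp4b at 1 count in all. Of 8 squamous genes 4 rose in either region, among them Sprr1a at 2.13 in corpus and 2.35 in antrum. Of 10 intestinal genes corpus had 3 that rose and 1 that fell, antrum 4 that rose, with Clca1 at 4.02 in corpus and 4.83 in antrum.

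Markers of cells outside the epithelium were near 0. The sum over 8 endothelial, muscle and nerve markers was 1.38 to 3.20 CPM in any library, where 1 of 3 tested rose with inhibition in corpus and 0 passed in antrum. Of the stromal list 1 gene was tested, Col1a1, at 1.06 CPM or less, which did not pass in corpus (0.28) and fell in antrum (-1.74). Of 3 tested immune genes 0 passed in corpus and 1, Ptprc, rose in antrum at 0.860 CPM or less; the list's sum was 16.1 to 52.4 CPM in inhibited corpus and 29.2 to 39.2 CPM in vehicle corpus, and 18.2 to 28.4 CPM in inhibited antrum and 10.3 to 28.3 CPM in vehicle antrum, nearly all of it Cd68, which epithelial cells can express too. Endocrine markers summed to 1.06 to 7.27 CPM and 0 of 2 tested changed. Of 4 tested tuft cell genes 1 rose, Avil, and 1 fell, Dclk1, in both regions. Of 7 epithelial genes 5 rose in both regions and 1, Epcam, fell in corpus.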
